A study of Mus musculus with 25 samples.

Results

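The comparison described here set BRCA1del mouse embryonic stem cells given Tus and an siRNA against BRCA1 beside BRCA1del cells given Tus and an siRNA against luciferase, a firefly enzyme used as the control target. It holds every junction of those 2 groups, 2748 of the 11867 junctions in the series, with 1323 from siBRCA1 cells and 1425 from siLuciferase cells. All cells of both groups carried the genotype that the labels give as BRCA1del/exon11, a 4-kb reporter cassette with 1 GFP copy (1xGFP) in the ROSA26 locus and a Cas9 cut 30 kb from it, and all were grown on MEF feeder cells. DNA was collected 48 h after transfection. The genotype label was read here as a loss of exon 11 of BRCA1, though it does not say what each allele had lost. On that reading the question was what further depletion of BRCA1 did to joins at the reporter. Whether the siRNA lowered BRCA1 was not analysed here, since the tables hold junctions and no expression.

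BRCA1 is a mediator of homologous recombination that also acts at stalled replication forks. Exon 11 encodes a large middle part of the protein, and mouse cells that have lost it can still make a shorter BRCA1 protein from the remaining exons. Tus is a bacterial protein that binds Ter elements and blocks forks that reach them from one side, so that a Ter array bound by Tus is a fork barrier at a known place. Ends can be rejoined without matching bases (blunt joins), through a few bases that both ends share (microhomology), or with new bases between them (insertions).

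The assay was LAM-HTGTS, in which DNA joined to the end of the Cas9 cut (the bait) is amplified from a primer beside the cut and sequenced. Each read gives the position of the joined DNA (the prey) in the cassette, the direction in which that DNA runs and the bases at the join. Joins were called leftward where the prey ran from the junction toward position 1 of the cassette, and rightward where it ran the other way. Positions are 1-based coordinates of the deposited cassette reference and not of a genome build. The 6 Ter elements, of 23 bp each and all in the same orientation, lay between 3048 and 3244, and the I-SceI site lay at 3260 to 3277. Together with the repeated sequence in front of the first Ter element they make up the array window, 3024 to 3277. The cassette body ran from 1 to 3617, and the polyA region followed from the XbaI site at 3618.

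Reads carried 3 sequencing runs in each group, called B, C and D, and each run of a group was taken as 1 library. The siBRCA1 libraries held 545, 584 and 194 junctions in runs B, C and D, and the siLuciferase libraries held 602, 570 and 253. Nothing ties a run to a labelled replicate. Every library of runs C and D carried the same 5-base barcode for its group in both runs, in 8 of 8 groups that had both, whereas run B used other barcodes for these 2 groups. Prey fragments of run D that recurred in the same group's run C numbered 14 of 180 in siBRCA1 cells and 22 of 235 in siLuciferase cells, against 11 to 20 and 16 to 23 in the run C libraries of other groups. No read name was repeated. Whether runs C and D came from separate cultures, or were repeats of 1 culture or library, cannot be told from these values. As background, a control without Tus, which the labels call EV and which was given siFANCM in place of these siRNAs, had 5 of 468 junctions in the cassette body (1.07%), and 1 of them lay in the array window.

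The joins that recurred most show what the structure classes are. The end of the bait and 4 recurrent array joins are printed 5′ to 3′ in the reading direction from the bait, with 20 bases on each side of the join and the bases shared by both sides in capitals:
Bait up to the Cas9 cut: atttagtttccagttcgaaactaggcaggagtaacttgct
Leftward, 4 shared bases: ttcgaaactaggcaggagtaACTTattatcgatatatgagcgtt
Leftward, blunt: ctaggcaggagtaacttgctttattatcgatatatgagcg
Rightward, 6 shared bases: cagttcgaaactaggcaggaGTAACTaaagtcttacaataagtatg
Rightward, blunt: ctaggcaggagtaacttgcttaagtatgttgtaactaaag
The leftward join through ACTT was listed at 3054, in the first Ter element, after the loss of 3 bait bases. It was read 3 times in siBRCA1 cells and 4 times in siLuciferase cells, in all 3 runs of each. Of its 7 reads, 5 extended at least 20 bp into the unique flank, and the others are placed with less certainty. The leftward blunt join entered the first Ter element at 3052 from a bait end that had lost no base, with 2 reads in siBRCA1 cells and 3 in siLuciferase cells. The rightward join through GTAACT was listed at 3088, in the second Ter element, but none of its reads reached the unique flank, so the matching place in the other repeat, in the fifth Ter element, cannot be told apart from it. It was read once in each of the 3 siBRCA1 libraries and in 0 siLuciferase libraries, with no test made of so few reads. The rightward blunt join, at 3196 in the fifth Ter element, was read once in each group.

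Rightward joins made up a larger share of array joins in siBRCA1 cells. In runs B, C and D, 36 of 274, 49 of 269 and 18 of 103 array joins ran rightward in siBRCA1 cells, which is 13.1%, 18.2% and 17.5%. In siLuciferase cells the counts were 35 of 329, 21 of 270 and 22 of 160, which is 10.6%, 7.78% and 13.8%. The share was higher with siBRCA1 in 3 of 3 runs, and the ranges overlapped, since the lowest siBRCA1 library lay below the highest siLuciferase library. The means were 16.3% ± 2.7 in siBRCA1 cells and 10.7% ± 3.0 in siLuciferase cells (SD, n = 3 libraries each). Within runs the difference was 5.80 percentage points (95% interval 2.27 to 9.34), and the common odds ratio was 1.68 (95% interval 1.21 to 2.33).

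This difference passed on junction counts (adjusted p = 0.011, exact conditional test stratified by run, Benjamini-Hochberg over 11 measures). It did not pass over libraries, where the exact permutation test gave p = 0.20 and the exact sign-flip over runs p = 0.25. The smallest two-sided values these designs allow are 0.10 and 0.25, so no measure could pass there. Run C carried much of the difference, at 10.4 points against 2.50 in run B and 3.73 in run D, and without run C the difference was 2.86 points and no longer passed (adjusted p = 0.58, exact conditional test). Counting each position and strand once per library, it was 7.76 points with an adjusted p of 0.092 by the same exact test. With reads of the same position, strand, far prey end and bait end counted once per library, it was again 5.80 points. The unadjusted p of 0.0013 (exact conditional test) was also that of the main comparison, and the adjusted p was 0.015. Since the array joins gave the same values, this setting was no separate check of the rightward share.

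**Figure D1:**
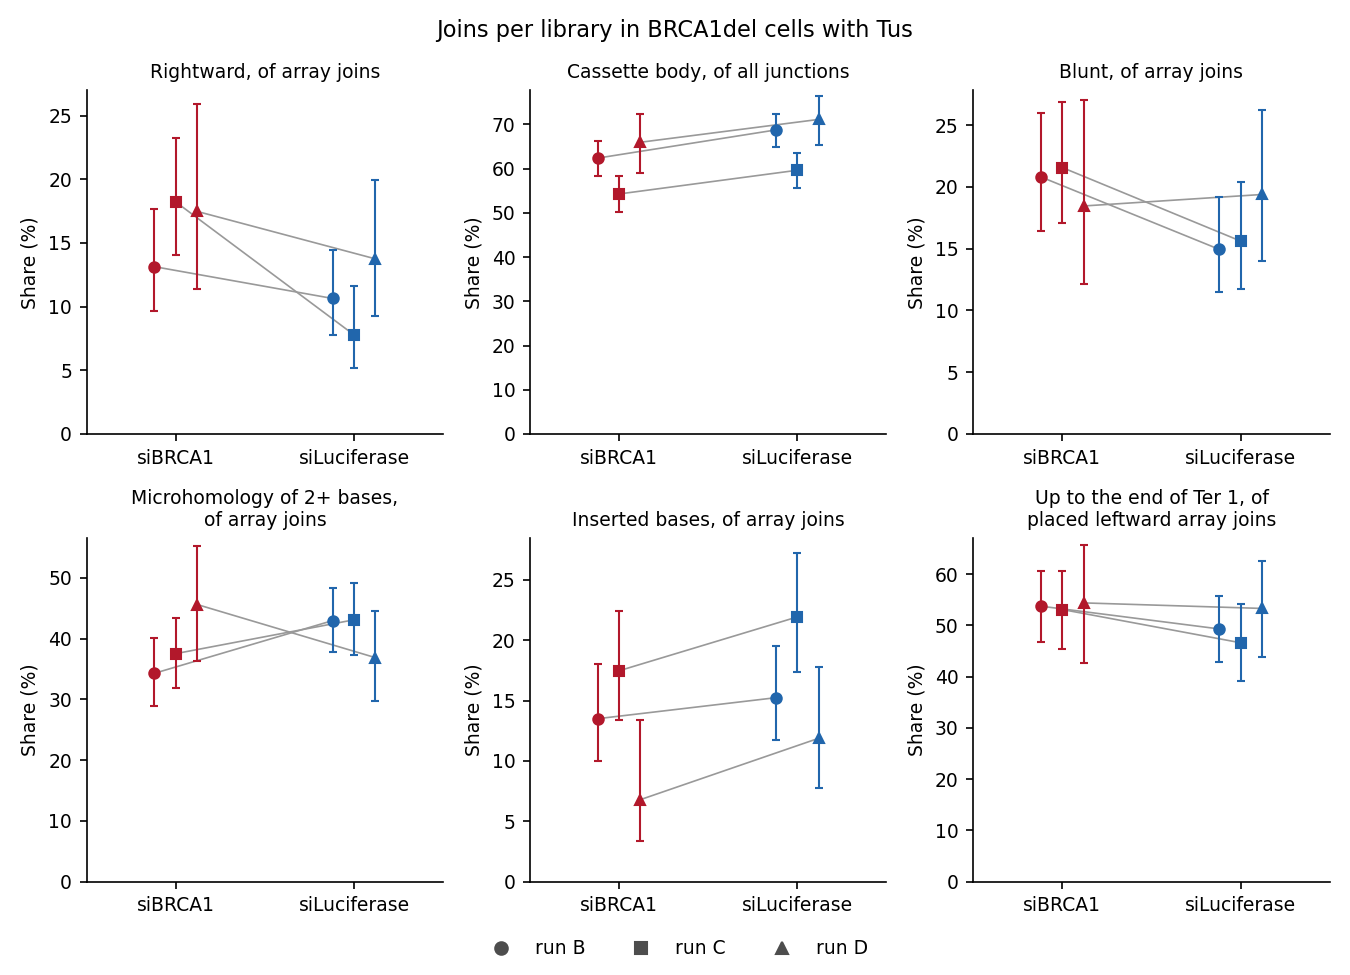
Each panel shows 1 share in percent for the 3 siBRCA1 libraries (red, left) and the 3 siLuciferase libraries (blue, right). Markers give the run, grey lines join the libraries of a run, and bars are Wilson 95% intervals for counting error. In all 3 runs the rightward share is higher with siBRCA1, with the steepest line in run C, and the body share is lower.

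The rightward joins that set the groups apart lay in part beyond the last Ter element. From 3245 to the end of the I-SceI site at 3277, siBRCA1 cells had 10, 10 and 3 rightward joins in runs B, C and D, or 3.65%, 3.72% and 2.91% of array joins. In siLuciferase cells that stretch held 4, 2 and 2 rightward joins, or 1.22%, 0.741% and 1.25%. All 3 siBRCA1 libraries lay above all 3 siLuciferase libraries. Of these listed joins, 8, 10 and 3 in siBRCA1 cells and 4, 2 and 2 in siLuciferase cells reached at least 20 bp past the array, and the others are placed with less certainty. The stretch was chosen after its values were seen, so no test was made. Up to the end of the sixth Ter element the rightward share of array joins was 9.49%, 14.5% and 14.6% in siBRCA1 cells and 9.42%, 7.04% and 12.5% in siLuciferase cells. When the window was narrowed to the span of the Ter elements, the within-run difference came to 4.36 points, short of the threshold (adjusted p = 0.14, exact conditional test).

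Rightward joins lay toward the right end of the array in both groups. A read that ends inside the array can fit either of its 2 repeats, so joins were called placed only where the prey extended 20 bp or more into the unique flank, and other listed positions inside the array are uncertain. Of the rightward joins, 67 of 103 in siBRCA1 cells and 43 of 78 in siLuciferase cells were placed in this way. Their median position was 3234, 3224 and 3218 in the siBRCA1 libraries and 3224, 3226 and 3216 in the siLuciferase libraries, which is within or near the sixth Ter element. Placement favours joins near the flank that a read runs toward, so these medians describe placed joins only. Left of the array, rightward joins numbered 34 of 141 rightward body joins in siBRCA1 cells and 38 of 117 in siLuciferase cells.

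Leftward joins were the larger class in every library, and the placed ones clustered at the first Ter element. Placement favours leftward joins near the left flank, so that clustering describes placed joins only. By listed position, the first Ter element held 161 of 644 leftward body joins in siBRCA1 cells and 186 of 817 in siLuciferase cells. The stretch from the fourth to the sixth Ter element held 103 and 195, and listed positions of reads that were not placed are uncertain. Among placed leftward array joins, 107 of 199, 85 of 160 and 37 of 68 lay no further right than the first Ter element in siBRCA1 cells, which is 53.8%, 53.1% and 54.4% in runs B, C and D. In siLuciferase cells 110 of 223, 76 of 163 and 56 of 105 did, which is 49.3%, 46.6% and 53.3%. The share was higher with siBRCA1 in 3 of 3 runs, yet the lowest siBRCA1 library lay below the highest siLuciferase library. The difference of 4.56 points (95% interval -1.93 to 11.1) did not pass (adjusted p = 0.34, exact conditional test), and its interval allows both a small fall and a rise of 11.1 points.

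The median position of placed leftward joins was 3068, 3068.5 and 3064.5 in siBRCA1 cells and 3071, 3073 and 3069 in siLuciferase cells. All 3 siBRCA1 medians lay to the left of all 3 siLuciferase medians, by 3 to 4.5 bp within runs. The medians describe placed joins only and were not tested. Of the placed leftward joins, 76 of 427 in siBRCA1 cells and 70 of 491 in siLuciferase cells lay between the start of the array window and the first Ter element, 17.8% and 14.3%. Within the first Ter element lay 153 in siBRCA1 cells and 172 in siLuciferase cells, 35.83% and 35.03%. From there to the end of the second Ter element lay 120 in siBRCA1 cells and 135 in siLuciferase cells, 28.1% and 27.5%, and on to the end of the third 35 and 57, 8.20% and 11.6%.

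**Figure D2:**
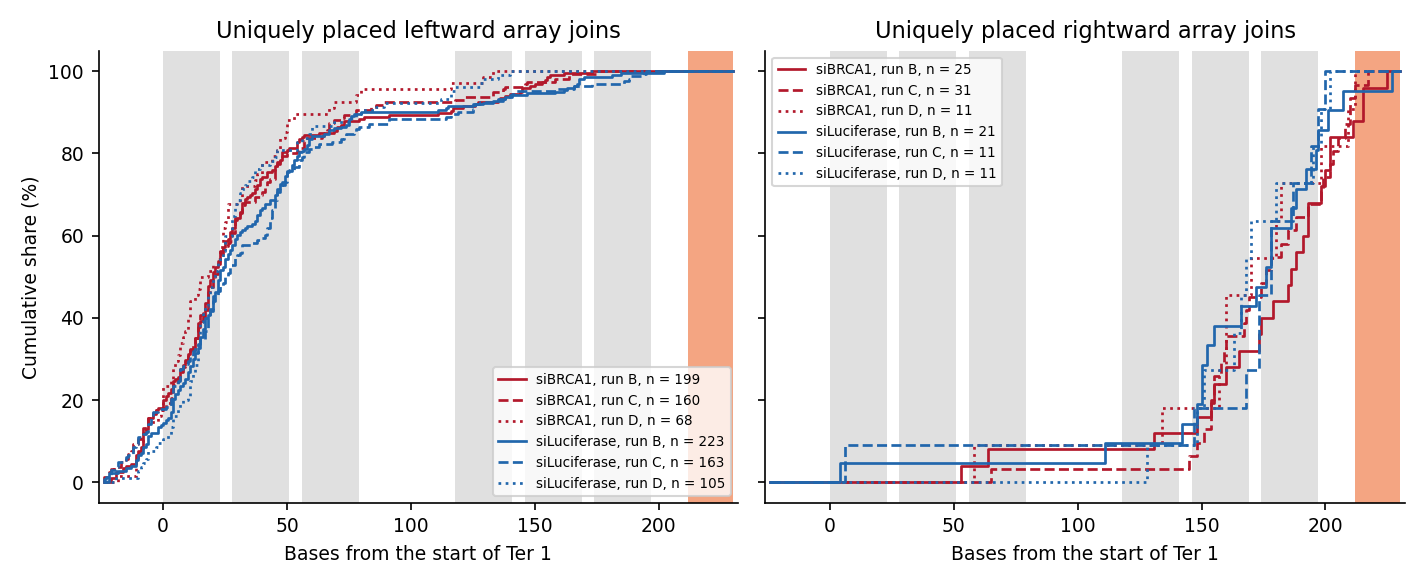
Cumulative share in percent of uniquely placed array joins against distance in bases from the start of the first Ter element, for leftward joins (left panel) and rightward joins (right panel), with 1 line per library. Grey bands are the 6 Ter elements and the orange band is the I-SceI site. Leftward lines climb mostly across the first pair of Ter elements and rightward lines across the last pair. The leftward lines of siBRCA1 and siLuciferase run close together. Of placed rightward joins, 32.0%, 32.3% and 27.3% lay after the sixth Ter element in siBRCA1 runs B, C and D. In siLuciferase the shares were 19.05%, 18.2% and 18.2%, and this difference was not tested.

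The distal repeat held fewer of the listed leftward joins in siBRCA1 cells. From the fourth Ter element to the end of the window lay 21.0%, 23.6% and 8.24% of leftward array joins in siBRCA1 cells, against 27.6%, 35.3% and 21.7% in siLuciferase cells. Most of these reads could not be placed, 77 of 109 in siBRCA1 cells and 158 of 199 in siLuciferase cells. The placed share of leftward array joins was 83.6%, 72.7% and 80.0% in siBRCA1 cells and 75.9%, 65.5% and 76.1% in siLuciferase cells, higher with siBRCA1 in each run. Among placed leftward joins the stretch from the fourth to the sixth Ter element held 32 of 427 in siBRCA1 cells and 40 of 491 in siLuciferase cells, 7.49% and 8.15%. These shares were described after they were seen and were not tested.

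The 5 positions with the most placed joins over both groups were all entered leftward within the first Ter element. Since placement favours leftward joins near the left flank, this ranking describes placed joins only. Position 3052 held 11 joins in siBRCA1 cells and 15 in siLuciferase cells. Position 3066 held 16 in siBRCA1 cells and 10 in siLuciferase cells, with 8, 7 and 1 in runs B, C and D of siBRCA1 and 2, 5 and 3 in those of siLuciferase. Positions 3062, 3063 and 3068 held 12, 8 and 9 in siBRCA1 cells and 9, 14 and 13 in siLuciferase cells. The largest share that 1 of these positions took of a group's placed joins was 3.24%.

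Fewer of the junctions in siBRCA1 cells lay in the cassette body, and more lay in the polyA region. In siBRCA1 cells 340 of 545, 317 of 584 and 128 of 194 junctions lay in the body, which is 62.4%, 54.3% and 66.0% in runs B, C and D. In siLuciferase cells 414 of 602, 340 of 570 and 180 of 253 did, which is 68.8%, 59.6% and 71.2%. The siBRCA1 library was the lower one in 3 of 3 runs, with differences of -6.38, -5.37 and -5.17 points, and the 3 differences lay close together. The means were 60.9% ± 6.0 in siBRCA1 cells and 66.5% ± 6.1 in siLuciferase cells (SD, n = 3 libraries each).

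The within-run difference was -5.76 points (95% interval -9.37 to -2.15; odds ratio 0.780, 95% interval 0.666 to 0.914) and passed on junction counts (adjusted p = 0.011, exact conditional test). Over libraries the exact permutation test gave p = 0.30 and the exact sign-flip over runs p = 0.25. Libraries of a group differed among themselves beyond counting error here (unadjusted exact p = 0.0028 in siBRCA1 cells and 0.00057 in siLuciferase cells), with run C lowest and run D highest in both groups, and the test within runs sets that shared order aside. Single polyA positions recurred often, with up to 81 junctions at 1 position in siBRCA1 cells and 84 in siLuciferase cells, against 16 and 15 in the body. With each position and strand counted once per library the difference shrank to -1.42 points (adjusted p = 0.79, exact conditional test), which does not pass. With reads of the same position, strand, far prey end and bait end counted once per library, it was -5.40 points. That passed (adjusted p = 0.02, exact conditional test). Without run B or without run C the difference was -5.31 and -6.05 points and did not pass. A rise in polyA junctions cannot be told apart here from a fall in body joins. The share is taken of all listed junctions, and no count of cells entered it.

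Within the body, the array window held 274 of 340, 269 of 317 and 103 of 128 joins in siBRCA1 cells, or 80.6%, 84.9% and 80.5%. In siLuciferase cells it held 329 of 414, 270 of 340 and 160 of 180, or 79.5%, 79.4% and 88.9%. The groups overlapped, with run D turned the other way from runs B and C, and the difference was 1.11 points (95% interval -2.56 to 4.78; adjusted p = 0.79, exact conditional test). Leftward joins left of the array made up 16.3%, 12.2% and 14.9% of leftward body joins in siBRCA1 cells and 16.4%, 14.8% and 9.74% in siLuciferase cells. That difference was -0.209 points (95% interval -3.85 to 3.44; adjusted p = 1.0, exact conditional test), and 93 of 644 and 119 of 817 joins lay there in siBRCA1 and siLuciferase cells.

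**Figure D3:**
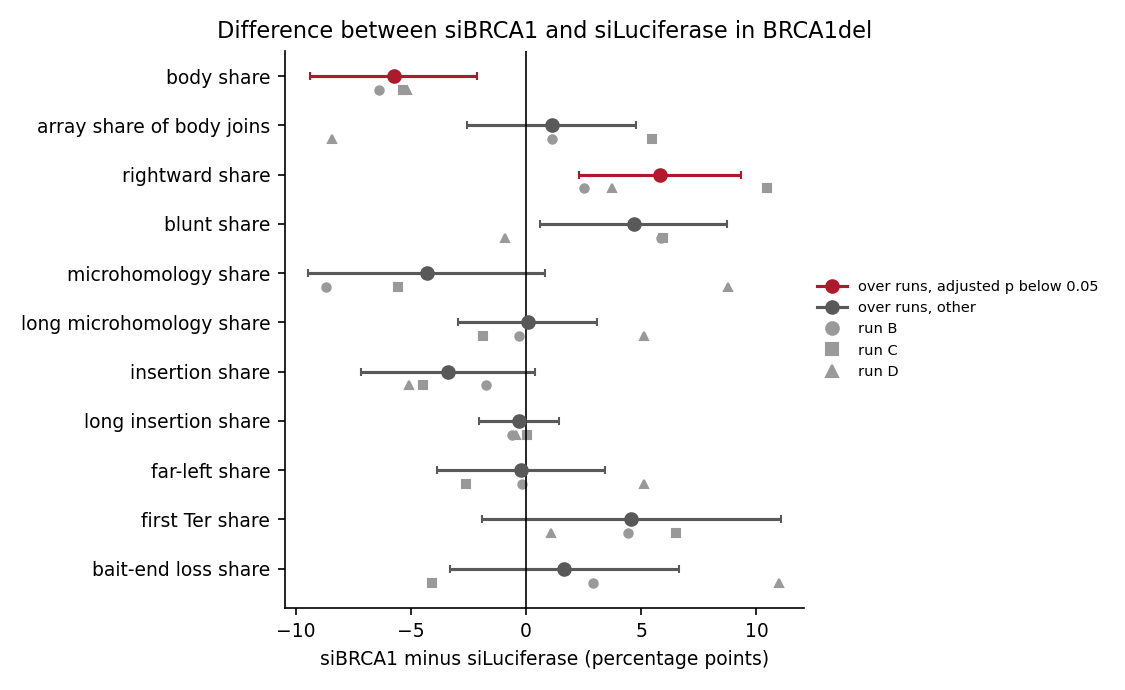
Difference in percentage points (siBRCA1 minus siLuciferase) for the 11 shares tested. Circles with bars are the Mantel-Haenszel difference over runs with its 95% interval for counting error, in red where the adjusted p of the exact test was below 0.05, and small grey markers are the single runs. The body share and the rightward share are the 2 in red, and runs lie on both sides of 0 for 7 of the other 9 shares, the exceptions being the insertion and first Ter shares.

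Blunt joins, in which bait and prey met with neither shared nor inserted bases, were 57 of 274, 58 of 269 and 19 of 103 array joins in siBRCA1 cells, or 20.8%, 21.6% and 18.4%. In siLuciferase cells they were 49 of 328, 42 of 269 and 31 of 160, or 14.9%, 15.6% and 19.4%. Runs B and C were higher with siBRCA1 by 5.86 and 5.95 points, and run D was lower by a difference of -0.928 points. The within-run difference of 4.67 points (95% interval 0.595 to 8.74; odds ratio 1.37, 95% interval 1.03 to 1.81) did not pass after adjustment (unadjusted p = 0.026, adjusted p = 0.096, exact conditional test). Without run D it was 5.90 points and passed (adjusted p = 0.04, exact conditional test), and run D held the fewest array joins of the 3 runs.

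Microhomology of 2 or more bases was found in 94 of 274, 101 of 269 and 47 of 103 array joins in siBRCA1 cells, or 34.3%, 37.5% and 45.6%. In siLuciferase cells it was found in 141 of 328, 116 of 269 and 59 of 160, or 43.0%, 43.1% and 36.9%. Runs B and C were lower with siBRCA1, by -8.68 and -5.58 points, and run D was higher by 8.76 points, so the groups overlapped. The within-run difference of -4.32 points (95% interval -9.46 to 0.814) did not pass (adjusted p = 0.25, exact conditional test). Without run D it was -7.21 points and passed (adjusted p = 0.042, exact conditional test). Over the whole cassette body it was -6.97 points and also passed (adjusted p = 0.013, exact conditional test).

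Longer microhomology, of 4 or more bases, was found in 25 of 274, 20 of 269 and 13 of 103 array joins in siBRCA1 cells and in 31 of 328, 25 of 269 and 12 of 160 in siLuciferase cells. The pooled counts were 58 of 646 in siBRCA1 cells and 68 of 757 in siLuciferase cells. Over the run strata the within-run difference was 0.0637 points (95% interval -2.97 to 3.10; adjusted p = 1.0, exact conditional test). By length, joins with 1 shared base made up 27.7% of array joins in siBRCA1 cells and 25.2% in siLuciferase cells. In siBRCA1 cells joins with 2, 3, 4 and 5 or more shared bases made up 20.7%, 7.74%, 5.42% and 3.56%. In siLuciferase cells they made up 22.99%, 9.78%, 6.74% and 2.25%.

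**Figure D4:**
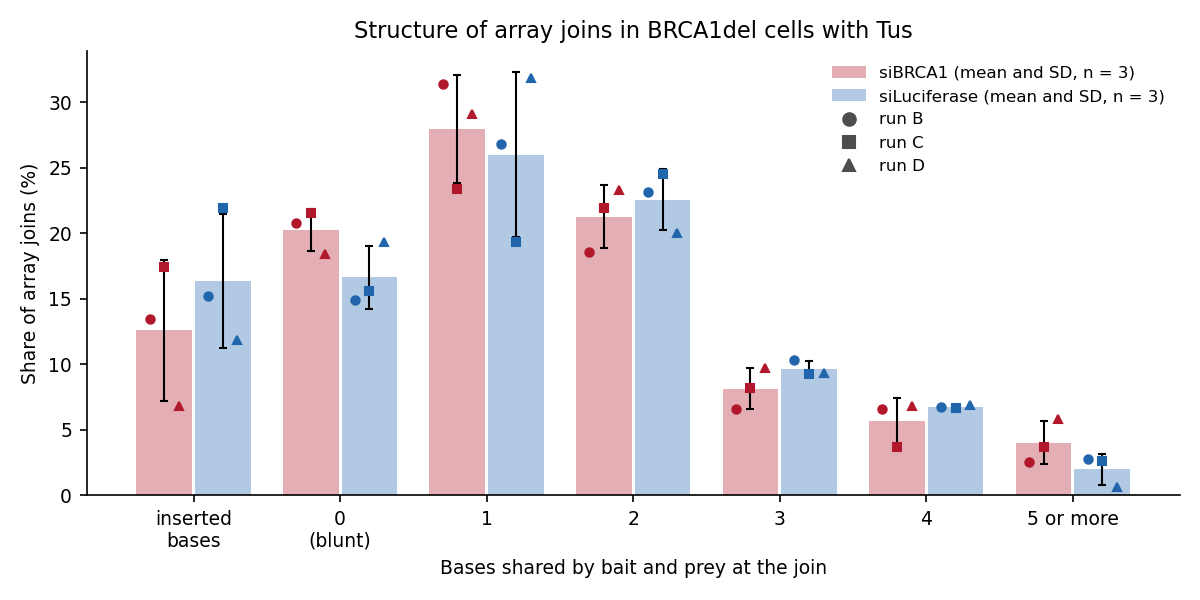
Share of array joins in percent by structure, with joins that hold inserted bases at the left and joins without them by the number of shared bases. Bars are means and error bars SD over 3 libraries, with siBRCA1 in red left of siLuciferase in blue, and markers give the runs. In every class the libraries of the 2 groups overlap, and joins with 1 shared base are the largest class on average in both groups.

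Of the 5 shared sequences that were most frequent over both groups, read in the direction of the bait, TA came first. It was used in 41 array joins of siBRCA1 cells and 45 of siLuciferase cells, or 16.9% and 14.2% of the joins with 2 or more shared bases, and TT in 33 and 42. ACTT, which lies 3 bases before the cut in the bait printed above, was used in 15 joins of siBRCA1 cells and 20 of siLuciferase cells, which is 15 of 242 and 20 of 316 such joins. The short AC was used in 10 joins of siBRCA1 cells and 21 of siLuciferase cells, and its longer form AAC in 7 and 15. These counts were described and not tested.

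Insertions were less frequent in the siBRCA1 library of every run, but the difference did not pass. They were found in 37 of 274, 47 of 269 and 7 of 103 array joins in siBRCA1 cells, or 13.5%, 17.5% and 6.80%. In siLuciferase cells they were found in 50 of 328, 59 of 269 and 19 of 160, or 15.2%, 21.9% and 11.9%. Runs of a group differed among themselves (unadjusted exact p = 0.025 in siBRCA1 cells and 0.016 in siLuciferase cells), with run C highest and run D lowest in both groups. The within-run difference was -3.40 points (95% interval -7.17 to 0.372; adjusted p = 0.24, exact conditional test). Insertions of 10 or more bases were found in 27 of 785 body joins of siBRCA1 cells and 34 of 932 of siLuciferase cells, a difference of -0.321 points (95% interval -2.07 to 1.43; adjusted p = 0.97, exact conditional test).

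The bait end had lost 20 or more bases in 89 of 274, 94 of 269 and 39 of 103 array joins in siBRCA1 cells, or 32.5%, 34.9% and 37.9%. In siLuciferase cells it had in 97 of 328, 105 of 269 and 43 of 160, or 29.6%, 39.0% and 26.9%. The runs pointed both ways, at 2.91, -4.09 and 10.99 points, and the within-run difference was 1.65 points (95% interval -3.31 to 6.62; adjusted p = 0.79, exact conditional test). No base was missing from the bait end in 102 of 646 array joins of siBRCA1 cells and 110 of 757 of siLuciferase cells, 15.8% and 14.5%. Losses of 50 or more bases were seen in 59 of these joins in siBRCA1 cells (9.13%) and in 85 in siLuciferase cells (11.2%).

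Rightward and leftward joins could differ in structure, so both were described apart. Of rightward array joins, 27 of 103 were blunt in siBRCA1 cells and 12 of 78 in siLuciferase cells, 26.2% and 15.4%. Of leftward array joins, 107 of 543 were blunt in siBRCA1 cells and 110 of 679 in siLuciferase cells, 19.7% and 16.2%. Microhomology of 2 or more bases was found in 34 rightward joins of siBRCA1 cells and 31 of siLuciferase cells, 33.0% and 39.7%, and in 38.3% and 42.0% of leftward joins. With leftward joins alone the blunt difference was 3.68 points and the microhomology difference -3.68 points, and neither passed (adjusted p = 0.31 each, exact conditional test). The median loss at the bait end was 4 bases in rightward joins of siBRCA1 cells and 6 in those of siLuciferase cells, and 13 and 10 bases in leftward joins.

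The most similar comparison was the same pair of siRNAs in BRCA1flox cells, which the labels give as BRCA1flox/exon11 and which shared runs C and D with the BRCA1del groups. It held 904 junctions with siBRCA1 and 1181 with siLuciferase, 2 libraries each. The body share differed less with siBRCA1 in BRCA1del than in BRCA1flox. Within runs C and D the difference was -5.31 points (95% interval -10.1 to -0.536) in BRCA1del and -15.6 points (95% interval -19.5 to -11.8) in BRCA1flox, with odds ratios of 0.799 and 0.452. The test of the difference between the genotypes passed on junction counts (adjusted p = 0.00086, exact conditional test over 11 measures), which covers counting error and not the spread over 2 libraries per group. With each position and strand counted once per library the differences were -0.498 points in BRCA1del and -9.26 points in BRCA1flox, and the genotype test did not pass (adjusted p = 0.091, exact conditional test). The siBRCA1 libraries of BRCA1flox had 61.7% and 71.6% of junctions in the body in runs C and D, and their siLuciferase libraries had 77.4% and 87.1%, above all 6 BRCA1del libraries.

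For the rightward share the genotypes were close in percentage points and apart in odds. The difference in runs C and D was 8.31 points (95% interval 3.52 to 13.1) in BRCA1del and 7.52 points (95% interval 4.66 to 10.4) in BRCA1flox. The odds ratios were 2.03 (95% interval 1.32 to 3.15) in BRCA1del and 5.83 (95% interval 2.90 to 12.7) in BRCA1flox, where siLuciferase libraries had 9 of 491 and 2 of 156 rightward array joins. The test of a common odds ratio did not pass after adjustment (unadjusted p = 0.0096, adjusted p = 0.053, exact conditional test). For the first Ter share the difference was 4.67 points (95% interval -4.18 to 13.5) in BRCA1del and 18.5 points (95% interval 10.8 to 26.2) in BRCA1flox, and the genotype test gave an unadjusted p of 0.02 and an adjusted p of 0.073 by the same exact test. Of the 11 measures, the body share alone passed the genotype test in runs C and D together. In run D alone 5 of 11 passed, among them the microhomology share, at 8.76 points in BRCA1del and -12.7 points in BRCA1flox (adjusted p = 0.039, exact conditional test). Run C alone, with more joins in each group, gave 1, the body share.

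**Figure D5:**
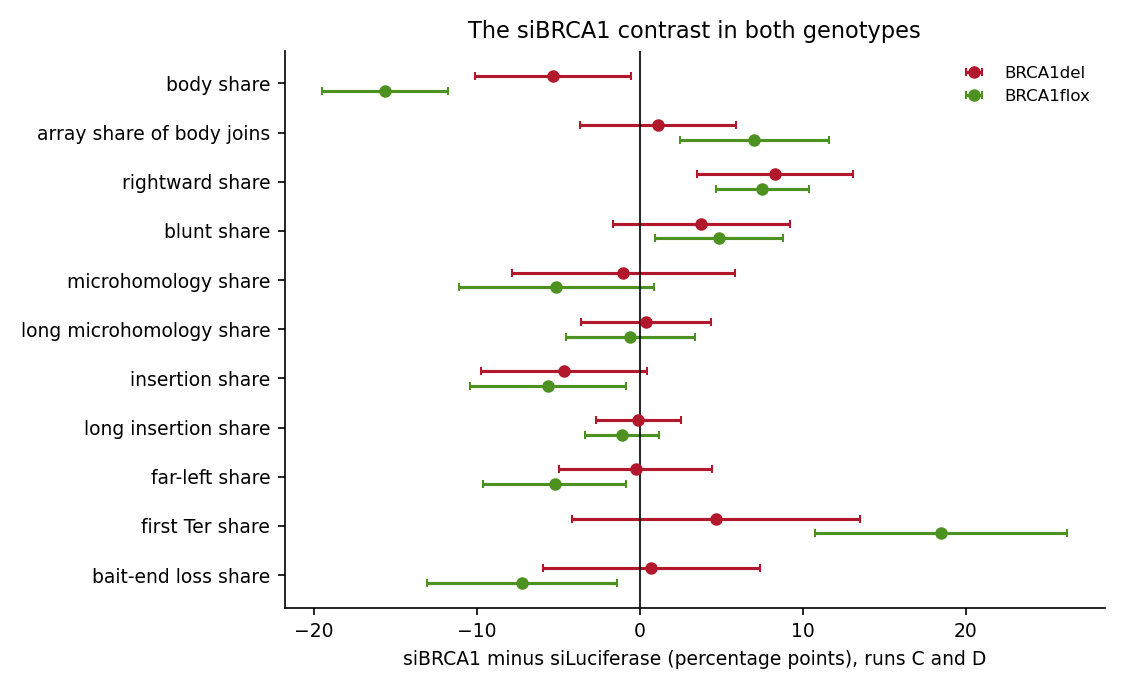
Difference in percentage points (siBRCA1 minus siLuciferase) within runs C and D for the 11 shares, in BRCA1del (red, upper) and BRCA1flox (green, lower), with 95% intervals for counting error. The body share is the measure whose intervals lie apart, at -5.31 points in BRCA1del and -15.6 in BRCA1flox, and the rightward share lies above 0 in both genotypes.

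The siBRCA1 libraries were also set against the other knockdowns in BRCA1del cells with Tus, siBLM (a RecQ helicase) in runs B, C and D and siFANCM (a translocase acting at stalled forks) in runs C and D. The body share was lower with siBRCA1 than with siBLM by a difference of -7.94 points (95% interval -11.6 to -4.31; adjusted p = 0.00024 over 22 tests, exact conditional test). It was also lower than with siFANCM, by -7.93 points (95% interval -13.0 to -2.86; adjusted p = 0.019, exact conditional test). In run D the body held 128 of 194 junctions with siBRCA1, 99 of 165 with siBLM and 97 of 148 with siFANCM, so siBRCA1 was the highest of the 3 there. Without run B the difference from siBLM came to -4.58 points, short of the threshold (adjusted p = 0.25, exact conditional test). Without run C the difference from siFANCM was 0.439 points, from run D alone, against -10.6 points in run C. Counting each position and strand once per library, neither passed, at -3.76 points against siBLM and -1.24 points against siFANCM.

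The rightward share with siBRCA1 was close to that with siBLM, at 13.1%, 18.2% and 17.5% against 18.4%, 14.9% and 16.0% in runs B, C and D, and the difference was -0.885 points (95% interval -4.79 to 3.02; adjusted p = 0.83, exact conditional test). Against siFANCM it was higher, at 18.2% and 17.5% in runs C and D against 6.23% and 4.23%, a difference of 12.3 points (95% interval 7.66 to 16.9; adjusted p = 1.1e-05, exact conditional test). Without run C this difference rested on run D alone and did not pass. The siFANCM library of run A, a run without siBRCA1, had 18.6% rightward array joins, above both siFANCM libraries compared here. The other 19 of these 22 tests did not pass. For blunt joins the difference was -0.563 points (95% interval -4.89 to 3.76) against siBLM and -1.64 points (95% interval -7.68 to 4.40) against siFANCM.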

How the data were processed

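LAM-HTGTS libraries were made from genomic DNA after sonication with XbaI blocking and read on a MiSeq, per the labels' protocols, and the submitters' processing notes name Bowtie2 and mm9. Which filters were used, and whether duplicates were removed, is not given in the sources used here. Tables that the authors deposited list 1 junction per row with position, strand, alignment ends and read, pooled over the samples of a group, so other values than positions, such as counts, were derived here. The measures and lists were chosen with earlier results of these data known.

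A cassette sequence was assembled by voting among reads. Right of the last Ter element, 262 of 262 spanning reads were 1 base shorter than the deposited coordinates. The coordinate left without a base was set by choice at 3140, between the repeats, and not by the stretch these reads span. The positions given for the fourth to sixth Ter elements depend on that choice by 1 base. Bait and prey were extended from exact matches of 10 and 12 bases, and structure was called for 98.8% of the series' junctions. The caller and tests were checked on simulated data. Runs of a group were the libraries, with 194 to 602 junctions each, and the labels list 3 samples in each group. Whether these came from separate cultures is not stated, so a p over runs reflects the spread among libraries, which may be technical.

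Shares were compared by an exact conditional test with runs as strata, Mantel-Haenszel differences and Benjamini-Hochberg adjustment (Python 3.11.15, scipy 1.17.1, statsmodels 0.14.6). Intervals cover counting error only, and amplified reads need not be independent molecules. Named positions and shared sequences are the 5 most frequent over both groups, and printed joins are the most frequent of their class. Alternatives were pooled counts, left-out runs, repeated junctions counted once, other windows and other minimum lengths.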

Additional observations from a re-analysis of the deposited data

Results flagged for a closer look

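The body share stood out because the same pair of siRNAs gave different contrasts in the 2 genotypes. Within runs C and D the difference was -5.31 points in BRCA1del and -15.6 points in BRCA1flox, and the exact conditional test of the difference between genotypes gave an adjusted p of 0.00086 on junction counts. The siLuciferase libraries had 59.6% and 71.2% of junctions in the body in BRCA1del, and 77.4% and 87.1% in BRCA1flox. With each position and strand counted once per library, 0 of the 11 genotype tests passed by the exact conditional test after adjustment and 2 had an unadjusted p below 0.05. Groups of 3 libraries were not screened for single outlying libraries.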

How the results depend on the processing

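The rightward and body shares kept their direction under every alternative run. The rightward difference no longer passed with each position and strand counted once per library (7.76 points) or within the span of the Ter elements (4.36), and leaving out 1 run gave 2.86 to 8.31 points, failing without run C. The body difference did not pass with each position and strand counted once (-1.42 points), and leaving out 1 run gave -6.05 to -5.31 points, failing without run B and without run C. With reads of the same position, strand, far prey end and bait end counted once, the body difference passed, at -5.40 points. The rightward difference stayed at 5.80 points with the unadjusted p of the main comparison, so that setting was no separate check of it. Leaving out 1 run gave 3.76 to 5.90 points for blunt joins and -7.21 to -1.02 for microhomology, both passing without run D, and over the whole cassette body microhomology passed at -6.97 points. No measure that failed at first passed under another alternative. Directions turned for differences near 0. Long microhomology gave -0.0045 points on pooled counts, -1.54 over the whole body, -0.169 in leftward joins, -0.349 without joins that hold insertions and -1.05 to 1.28 with 1 run left out. Bait-end loss gave -2.26 with a minimum of 50 bases and -0.408 to 5.30 with 1 run left out. With 1 run left out the array share gave -1.61 to 3.14 points and the far-left share -1.30 to 1.29. Genotype tests that passed numbered 1 of 11, 0 with each position and strand counted once and 1 to 5 with 1 run left out. Tests against siBLM and siFANCM that passed numbered 3 of 22, 1 with each position and strand counted once and 1 to 3 with 1 run left out. Counting reads with the same far prey end and bait end as well once, 1 genotype test and 2 tests against these knockdowns passed. These counts were added after seeing the data, and where a call changed with repeated positions the cause was not tested. No paired analysis was possible because the tables carry no replicate number, as far as pairs of labelled replicates go; shared runs paired the libraries in the stratified tests and the sign-flip instead. Run D, with 194 and 253 junctions in siBRCA1 and siLuciferase cells, has the widest intervals.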
